A study of Mus musculus with 6 samples.

Results

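The RNA methyltransferase, demethylase and pseudouridine synthase genes described here are those whose symbol begins with Mettl, Nsun, Trmt, Pus or Alkbh followed by a number, and 63 of the 21878 gene symbols in the deposited expression table met this rule. They comprised 29 Mettl, 6 Nsun, 15 Trmt, 5 Pus and 8 Alkbh genes. By the known target of the product, 4 acted on mRNA, 27 on tRNA and 5 on rRNA, 12 on proteins, 8 on other targets (DNA, small nuclear RNA, small molecules, or as a shared cofactor), and for 7 the target was not settled. RNA was measured in HT22 cells, an immortalized mouse hippocampal neuronal cell line, as the input libraries of an m6A immunoprecipitation experiment. The groups were control cells and cells given aluminum maltolate (Al), a complex that brings aluminum into cells, at 120 µM over 24 h, with 3 libraries each. The dose is that of the methods for the sequenced cells and the time that of the methods for treated cells in general, while the series' design text gives a range of doses. The labels mark the treated libraries only by another letter, and the methods list both untreated and maltol-only cells as controls without saying which were sequenced. All libraries came from 1 cell line, so that p-values measure only the spread between samples of that line.

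Enzymes add chemical marks to RNA after transcription, and the marks affect how the RNA folds, is read and is degraded. N6-methyladenosine (m6A), the commonest internal mark of mRNA, is written by a complex whose core is Mettl3 and Mettl14 and is removed by Fto and Alkbh5. Most of the other enzymes work on tRNA and rRNA, where methyl groups and pseudouridine hold the fold and the reading of codons, and a set of them works inside mitochondria. The Mettl and Alkbh names follow the shape of the protein and not its substrate, and several members methylate or demethylate proteins.

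Levels are given as FPKM, a fragment count set relative to transcript length and library depth, and a scaled FPKM is the deposited value over the size factor of its library, found by the median of ratios. Those factors ran from 1.17 to 1.2 in the control and from 0.799 to 0.929 in the Al libraries. The FPKM denominators, which correspond to the depth, were 38059492 to 44556768 reads in the control and 21125631 to 26670978 in the Al libraries, so that the Al values rest on fewer reads. The label of the cells was checked against markers. Of 13 neuronal markers Tubb3 and Syn1 alone exceeded 1 FPKM in every library and Snap25 was at 0 in all 6, whereas all 6 fibroblast markers exceeded 1 FPKM in every library, with Col1a1 between 743 and 1646 FPKM. The summed scaled FPKM of the neuronal markers was 13.7 to 15.2 in the control and 8.43 to 10.6 in the Al libraries, and that of the fibroblast markers 3079 to 4415 and 4922 to 6665, so that neither sum overlapped between the groups. Of the 5 neuronal markers tested 2 were called lower, and of the 6 fibroblast markers 2 were called higher (Col1a1 and Thy1), but 1 was higher and 2 were lower with quantile normalization, and 1 and 1 with the FPKM unscaled or with equal FPKM sums. As deposited, without scaling, the fibroblast sums overlapped, at 3601 to 5209.8 and 4141 to 5326 FPKM. The sum of 6 astrocyte markers was 12 to 19.8 scaled FPKM in the control and 1.98 to 2.92 in the Al libraries, most of it Slc1a3, which was called lower (log2 fold change -2.96), with Aqp4 at 0 in all 6 libraries. The 6 microglial markers overlapped in sum (33.7 to 41.6 and 23.9 to 90.9), with P2ry12 at 0 in all 6 libraries. Most of that sum was Tmem119, which was not called (log2 fold change 0.25). The sums of 6 oligodendrocyte and 5 endothelial markers reached at most 1.41. Cx3cr1 (2.14), Sox10 (2.29) and Pecam1 (1.26) were called higher, each under 1 FPKM in every library. The call of Pecam1 was lost with quantile normalization, with the FPKM unscaled and with equal FPKM sums. The part of these markers in the results was not tested.

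Among the members, 58 had a mean of at least 0.1 FPKM and were tested. Of these, 15 were higher in Al, 15 were lower and 28 were not called (limma on log2(scaled FPKM + 0.1), Benjamini-Hochberg adjusted P under 0.05 over all 12889 genes tested and a log2 fold change beyond 0.58). Fold changes are on this scale, which understates those of low genes, and since the RNA is of whole cultures, fewer cells of a kind and less RNA per cell cannot be told apart. Over all genes tested 49.2% were called, 25.5% higher and 23.7% lower, against 51.7% of the tested members. The 3 Al libraries did not overlap the 3 control libraries for 38 of 58 members, beside 68.1% of all genes tested. The share of members called was thus near that of the whole table. Their median log2 fold change was 0.11 and that of all genes tested 0.03. The counts in each direction follow by target class, and whether the classes differ was not tested. Of the tRNA enzymes 12 of 27 were higher and 5 lower, with a median log2 fold change of 0.41, although with the FPKM unscaled 8 were higher and 7 lower and with libraries set to equal FPKM sums 6 were higher and 11 lower. Of the 5 rRNA genes 3 were lower and 1 higher, with a median of -0.87, whereas with quantile normalization 2 were higher and 1 lower. Among 11 tested protein methyltransferases and dioxygenases 3 were lower and 1 higher, with a median of -0.29, and 6 were lower with the FPKM unscaled and 8 with equal FPKM sums. Of 6 tested genes with other targets 3 were lower and none was higher, with a median of -0.62, and 2 were lower with quantile normalization and 5 with equal FPKM sums. Among 5 with no settled target, 1 was lower, with a median of -0.13, and 3 with equal FPKM sums. The mRNA class held 1 called gene of 4, which was higher, and 2 more were lower with the FPKM unscaled or with equal FPKM sums.

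**Figure D1:**
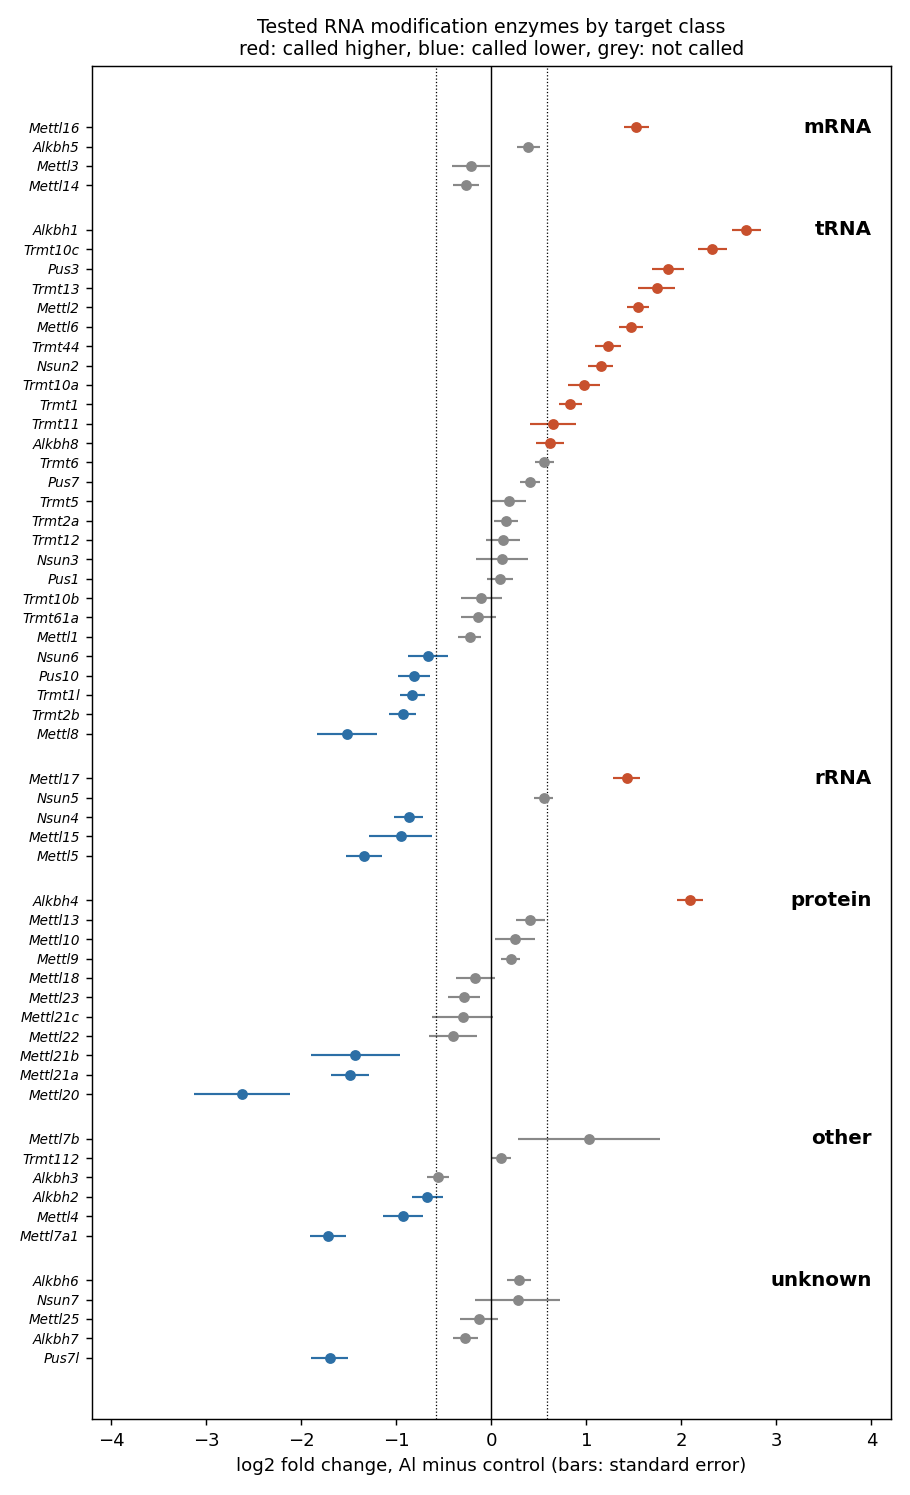
Log2 fold change (Al minus control) of the 58 tested members on the horizontal axis, grouped by target class, with bars for the standard error and dotted lines at the fold threshold of 0.58. The tRNA class spans -1.52 to 2.68 and holds 12 of the 15 genes called higher.

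The promoters of a few members are printed here because they belong to genes that rose, fell or were not called, and because the same short motif occurred in each of these kinds. RefSeq promoter windows (250 bases before to 50 after the start) were matched for 49 of the 63 members on GRCm38.p6. The following letters were searched on both strands: CCGGAAG of ETS factors, GGGCGG of Sp1, TGACGTCA of CREB factors, CGCATGCG of NRF1 and CACGTG of E-boxes, and letters shared by overlapping matches counted under both. The sequences are 5′ to 3′ along the gene's strand, with matches in capitals. Alkbh1 and Trmt10c had the largest rises, Mettl8 and Pus7l are among the larger falls, and Mettl3 and Mettl16 are mRNA m6A methyltransferases of which only the second was called.
Alkbh1 (chr12:87443790-87444089, minus strand): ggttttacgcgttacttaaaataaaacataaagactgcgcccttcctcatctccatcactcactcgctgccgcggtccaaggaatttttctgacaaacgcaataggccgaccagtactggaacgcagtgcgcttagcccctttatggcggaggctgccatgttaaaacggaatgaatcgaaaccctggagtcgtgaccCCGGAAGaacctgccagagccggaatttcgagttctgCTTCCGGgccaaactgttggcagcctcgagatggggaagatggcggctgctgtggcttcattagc
Trmt10c (chr16:56037737-56038036, minus strand): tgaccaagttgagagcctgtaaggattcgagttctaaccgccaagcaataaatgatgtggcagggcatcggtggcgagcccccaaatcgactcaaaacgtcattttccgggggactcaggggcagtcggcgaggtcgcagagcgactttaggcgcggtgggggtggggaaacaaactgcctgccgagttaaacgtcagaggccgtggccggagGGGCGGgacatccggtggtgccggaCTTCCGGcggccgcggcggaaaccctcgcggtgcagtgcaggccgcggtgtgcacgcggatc
Mettl8 (chr2:71055557-71055856, minus strand): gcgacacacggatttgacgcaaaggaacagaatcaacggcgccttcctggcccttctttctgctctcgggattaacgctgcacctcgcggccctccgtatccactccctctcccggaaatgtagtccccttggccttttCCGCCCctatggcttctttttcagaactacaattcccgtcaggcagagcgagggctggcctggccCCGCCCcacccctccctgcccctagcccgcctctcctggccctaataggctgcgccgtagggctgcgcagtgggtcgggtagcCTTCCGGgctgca
Pus7l (chr15:94543458-94543757, minus strand): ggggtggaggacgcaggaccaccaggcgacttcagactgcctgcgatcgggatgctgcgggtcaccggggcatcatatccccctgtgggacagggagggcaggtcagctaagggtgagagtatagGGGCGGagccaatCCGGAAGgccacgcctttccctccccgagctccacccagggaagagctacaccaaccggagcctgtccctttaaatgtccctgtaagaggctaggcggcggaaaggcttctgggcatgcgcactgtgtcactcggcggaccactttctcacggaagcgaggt
Mettl3 (chr14:52305075-52305374, minus strand): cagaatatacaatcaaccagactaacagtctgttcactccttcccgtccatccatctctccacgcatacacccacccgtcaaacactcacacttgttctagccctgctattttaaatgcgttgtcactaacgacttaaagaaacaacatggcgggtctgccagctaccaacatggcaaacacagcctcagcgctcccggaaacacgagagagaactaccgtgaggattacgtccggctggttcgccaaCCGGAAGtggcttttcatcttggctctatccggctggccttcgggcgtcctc
Mettl16 (chr11:74770613-74770912, plus strand): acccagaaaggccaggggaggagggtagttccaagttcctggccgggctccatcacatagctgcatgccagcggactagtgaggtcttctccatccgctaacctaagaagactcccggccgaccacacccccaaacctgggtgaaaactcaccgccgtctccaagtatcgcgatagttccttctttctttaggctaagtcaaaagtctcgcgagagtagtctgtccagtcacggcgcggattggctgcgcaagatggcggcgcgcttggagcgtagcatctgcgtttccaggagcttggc

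The ETS letters stood in the windows of Alkbh1, Trmt10c, Mettl8, Pus7l and Mettl3, and no searched letters in that of Mettl16. Over the 49 windows 38.8% held the ETS letters, against 18.3% of the 9785 windows of tested genes and 9.20% of all 27025 windows. The share was 6 of 13 for members called higher, 5 of 12 for members called lower and 8 of 21 for members not called. The Sp1 letters were in 49.0% of member windows and 63.8% of windows of tested genes, the CREB letters in 8.16% and 3.21%, the NRF1 letters in 2.04% and 3.93%, and the E-box letters in 10.2% and 9.89%. A match is a description of the letters and not a bound site.

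Of the enzymes of mRNA m6A, Mettl16 was higher in Al while Mettl3, Mettl14 and Alkbh5 were not called. Mettl16, which methylates U6 small nuclear RNA and the Mat2a mRNA (GRCm38, chr11:74770830-74828525), stood at 4.85, 4.7 and 5.27 scaled FPKM in the control and 15.5, 15.8 and 12.2 in the Al libraries. Every Al library exceeded every control library, and Mettl16 rose 2.88-fold, with a log2 fold change of 1.53 (SE 0.13, n = 3 per group, limma adjusted P = 3.0e-05). Mettl3, the catalytic subunit of the m6A writer (chr14:52294841-52305128), stood at 8.24, 9.59 and 8.26 scaled FPKM in the control and 6.16, 6.43 and 10.4 in the Al libraries. Al replicates 1 and 2 lay below all controls and Al replicate 3 above them, so that the groups overlapped, with a log2 fold change of -0.22 (SE 0.20, n = 3 per group, limma adjusted P = 0.36). Without Al replicate 3 the log2 fold change of Mettl3 was -0.45, which was still within the fold threshold. The exons of Mettl3 overlap those of the antisense gene Tox4 (log2 fold change 0.88) over 933 bases, and the sources used here do not say whether strand was used in counting.

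Mettl14, the RNA-binding partner of Mettl3 (chr3:123368297-123386108), stood at 7.99, 9.02 and 8.47 scaled FPKM in the control and 5.92, 7.5 and 7.83 in the Al libraries. All 3 Al values were below the control values, yet by little, with a log2 fold change of -0.27 (SE 0.13, n = 3 per group, limma adjusted P = 0.11). Alkbh5, the m6A demethylase (chr11:60536381-60558512), stood at 46.1, 41.7 and 50.9 scaled FPKM in the control and 54.1, 59.1 and 68.7 in the Al libraries. The 3 Al values were above all controls and the adjusted P passed, but the log2 fold change of 0.39 (SE 0.12, n = 3 per group, limma adjusted P = 0.022) stayed under the fold threshold. Its sign turned under the other scalings, at -0.01 with quantile normalization, -0.10 unscaled and -0.40 with equal FPKM sums, none of them called. Fto, the other demethylase, which the symbol rule does not include, stood at 23.2, 22.6 and 22.5 scaled FPKM in the control and 24.7, 22.7 and 19.3 in the Al libraries. The Al values of Fto lay on both sides of the controls, with a log2 fold change of -0.04 (SE 0.11, n = 3 per group, limma adjusted P = 0.77), and with equal FPKM sums Fto was called lower (-0.82). The scaling also changed the calls of Mettl3 and Mettl14: both were called lower with the deposited FPKM used unscaled (log2 fold changes of -0.70 and -0.75) and with libraries set to equal FPKM sums (-0.99 and -1.04). Mettl16 was called higher under all 4 scalings.

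**Figure D2:**
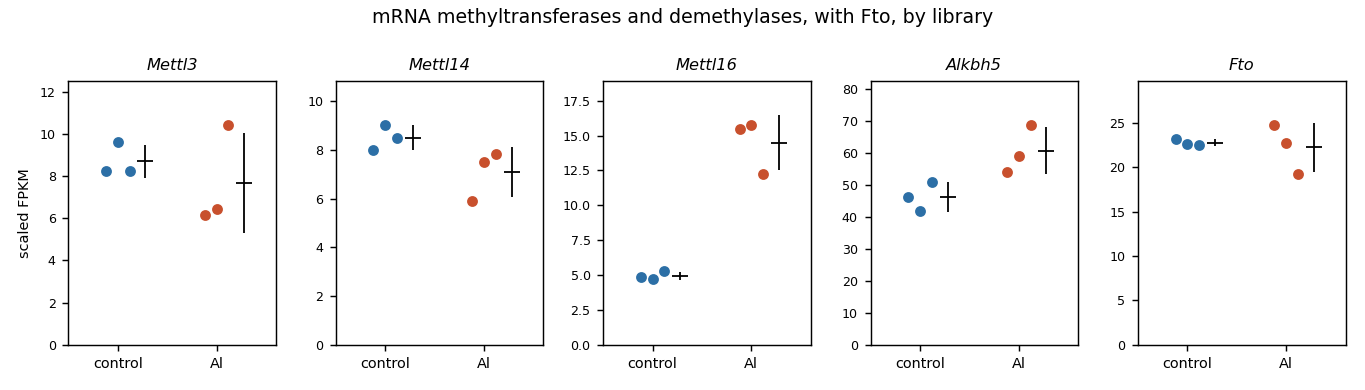
Scaled FPKM (vertical axes, from 0) of the mRNA enzymes and Fto in the 3 control and 3 Al libraries (points), with the mean and SD beside them. The groups are apart for Mettl16, whose Al values lie between 12.2 and 15.8, and also for Mettl14 and Alkbh5, which were not called. They overlap for Mettl3 and Fto.

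The tRNA enzymes held the 2 members with the largest rises. Alkbh1 (chr12:87425840-87444017), a dioxygenase that demethylates tRNA and oxidizes 5-methylcytosine of mitochondrial tRNA, stood at 4.75, 3.44 and 3.37 scaled FPKM in the control and 27.3, 23.1 and 24.6 in the Al libraries. The lowest Al library was well above the highest control, and Alkbh1 rose 6.42-fold, with a log2 fold change of 2.68 (SE 0.15, n = 3 per group, limma adjusted P = 6.7e-06). Trmt10c (chr16:56032609-56037819), a purine methyltransferase that is also a subunit of mitochondrial RNase P, stood at 6.78, 6.66 and 7.4 scaled FPKM in the control and 42.2, 37.2 and 27.6 in the Al libraries. Control libraries were close to each other and Al libraries spread more, and Trmt10c rose 5.0-fold, with a log2 fold change of 2.32 (SE 0.15, n = 3 per group, limma adjusted P = 1.2e-05). Both rises were called under all 4 scalings and every alternative tried.

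Pus3 (chr9:35558595-35567401), a pseudouridine synthase of tRNA, stood at 2.71, 3.04 and 4.29 scaled FPKM in the control and 12.3, 11.7 and 12.4 in the Al libraries. The Al libraries lay close together above all controls, with a log2 fold change of 1.85 (SE 0.17, n = 3 per group, limma adjusted P = 4.0e-05), but exons of Pus3 share 2618 bases with the antisense gene Hyls1, whose own log2 fold change was 0.98, so that the 2 genes may share reads. Trmt13 (chr3:116581093-116614587), which adds 2′-O-methyl groups to the tRNA acceptor stem, stood at 0.974, 1.38 and 1.17 scaled FPKM in the control and 4.11, 4.79 and 3.55 in the Al libraries. The groups did not overlap and the log2 fold change was 1.74 (SE 0.19, n = 3 per group, limma adjusted P = 1.0e-04); 1209 bases of its exons lie antisense to Lrrc39 and Sass6, and the log2 fold change of Sass6 was -0.14. Mettl2 (chr11:105126425-105140394), which writes 3-methylcytidine (m3C) in tRNA, stood at 5.59, 5.61 and 5.1 scaled FPKM in the control and 14.7, 17.9 and 15.5 in the Al libraries. All Al libraries were above all controls, with a log2 fold change of 1.54 (SE 0.11, n = 3 per group, limma adjusted P = 1.8e-05).

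Nsun2, a 5-methylcytidine (m5C) methyltransferase of tRNA and some mRNAs, had the highest mean level of the tRNA class and stood at 22.5, 22.3 and 26.5 scaled FPKM in the control and 56.8, 57.6 and 44.5 in the Al libraries. Its Al libraries were all above the controls, with a log2 fold change of 1.15 (SE 0.13, n = 3 per group, limma adjusted P = 1.1e-04), and the call was lost with equal FPKM sums (0.36). Nsun6, the other m5C methyltransferase with tRNA and mRNA targets, had the lowest mean level of the class, at 1.17, 1.17 and 0.956 scaled FPKM in the control and 0.629, 0.685 and 0.651 in the Al libraries. Its Al libraries were all below the controls, with a log2 fold change of -0.67 (SE 0.21, n = 3 per group, limma adjusted P = 0.022). The remaining tRNA enzymes called higher were Mettl6 (m3C of serine tRNA, log2 fold change 1.47), Trmt44 (1.23), the guanosine methyltransferases Trmt10a (0.98), Trmt1 (0.83) and Trmt11 (0.65), and the wobble uridine enzyme Alkbh8 (0.62). Those called lower beside Nsun6 were Mettl8 (-1.52), the 5-methyluridine enzyme Trmt2b of mitochondria (-0.93), the Trmt1 paralog Trmt1l (-0.83) and the pseudouridine synthase Pus10 (-0.82). The others were not called: Trmt6 (0.56), Pus7 (0.41), Trmt5 (0.19), Trmt2a (0.15), Trmt12 (0.12), Nsun3 (0.11), Pus1 (0.09), Trmt10b (-0.11), Trmt61a (-0.14) and the 7-methylguanosine methyltransferase Mettl1 (-0.23).

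Mettl8 (chr2:70964561-71055583), the mitochondrial m3C methyltransferase, stood at 1.62, 1.41 and 1.77 scaled FPKM in the control and 0.482, 0.29 and 0.812 in the Al libraries. The highest Al library was below the lowest control, with a log2 fold change of -1.52 (SE 0.32, n = 3 per group, limma adjusted P = 0.003). By compartment, 11 of the 23 nuclear or cytosolic tRNA enzymes were higher and 3 lower, with a median log2 fold change of 0.56, but 7 were higher and 5 lower with the FPKM unscaled, and 5 higher and 9 lower, with a median of -0.22, with equal FPKM sums. Each gene was given 1 compartment, so that the split does not show enzymes that act in both. Alkbh1, which acts on cytosolic and on mitochondrial tRNA, is an example and was counted here with the nuclear or cytosolic enzymes. Of the 4 tRNA enzymes assigned to mitochondria alone, 1 was higher (Trmt10c), 2 were lower (Mettl8 and Trmt2b) and Nsun3 was not called, with a median of -0.41. With the mitochondrial rRNA genes added, 2 of 7 were higher and 4 lower, with a median of -0.87, and 2 and 2 with quantile normalization. These classes are small, and the difference between them was not tested.

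**Figure D3:**
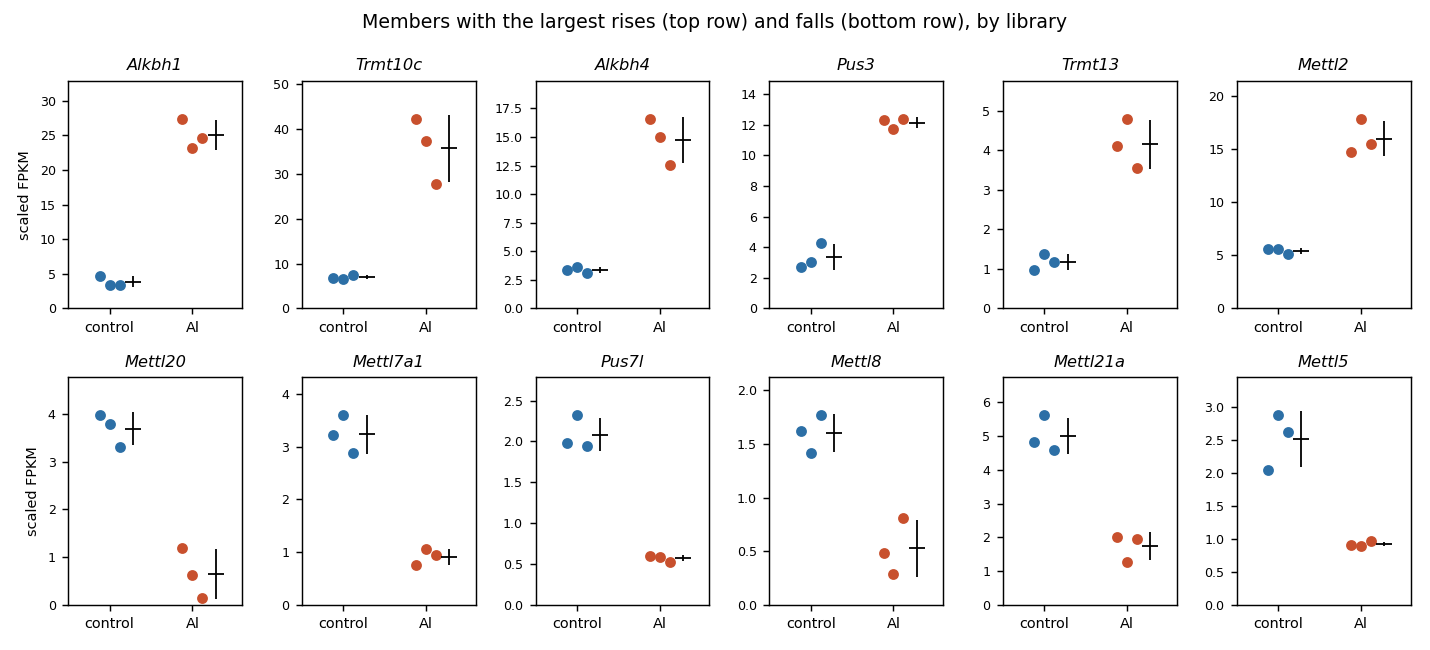
Scaled FPKM (vertical axes, from 0) by library for the 6 members with the largest rises (top row) and the 6 with the largest falls (bottom row) among called members without overlap at a mean of at least 1 FPKM, with the mean and SD beside the points. The separation of the groups follows from that choice, and the Al values spread most, relative to their level, for Mettl20, from 0.148 to 1.2.

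The rRNA genes moved in both directions. Mettl5 (chr2:69871198-69885615), the m6A methyltransferase of 18S rRNA, stood at 2.05, 2.88 and 2.62 scaled FPKM in the control and 0.914, 0.892 and 0.962 in the Al libraries. Al libraries were close together below all controls, with a log2 fold change of -1.34 (SE 0.19, n = 3 per group, limma adjusted P = 4.0e-04). Nsun5, the m5C methyltransferase of 28S rRNA and the most abundant of the class, stood at 8.54, 8.1 and 9.44 scaled FPKM in the control and 13, 12.8 and 12.5 in the Al libraries. All Al values were above the controls with a log2 fold change of 0.55 (SE 0.10, n = 3 per group, limma adjusted P = 0.0017), just inside the fold threshold. Exons of Nsun5 share 665 bases with the antisense gene Pom121, whose own log2 fold change was 1.27, so that the genes may share reads. Mettl15, the 4-methylcytidine methyltransferase of the mitochondrial small ribosomal subunit and the least abundant of the class, stood at 1.45, 1.67 and 1.68 scaled FPKM in the control and 0.42, 0.851 and 1.25 in the Al libraries. The groups did not overlap, with a log2 fold change of -0.96 (SE 0.33, n = 3 per group, limma adjusted P = 0.032), but the Al values spread widely, rested on 19 to 52 reads, and the call was lost under 8 of the 19 alternatives. Nsun4, the mitochondrial rRNA m5C methyltransferase, was lower (log2 fold change -0.87) and Mettl17, an assembly factor of the small mitochondrial ribosomal subunit, was higher (1.42).

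Among the protein enzymes, Alkbh4 was higher and Mettl20, Mettl21a and Mettl21b were lower. Alkbh4 (chr5:136136146-136141615), a dioxygenase that acts on methylated actin, stood at 3.4, 3.6 and 3.12 scaled FPKM in the control and 16.6, 15 and 12.6 in the Al libraries. It rose 4.25-fold without overlap, with a log2 fold change of 2.09 (SE 0.14, n = 3 per group, limma adjusted P = 1.1e-05). Mettl20 (chr6:149139849-149151171; now Etfbkmt), which methylates the electron transfer flavoprotein, stood at 3.97, 3.8 and 3.31 scaled FPKM in the control and 1.2, 0.621 and 0.148 in the Al libraries. The Al values were all far below the controls but differed among themselves, and rested on 44, 19 and 5 reads against 298 to 343 in the controls. Mettl20 was 6.17-fold lower, with a log2 fold change of -2.62 (SE 0.51, n = 3 per group, limma adjusted P = 0.002). That size was less certain than the call. The log2 fold change was -1.96 without Al replicate 3 and -1.55 with a pseudocount of 1. In the other direction it was -3.07 with the FPKM unscaled, -3.34 with equal FPKM sums and as low as -3.18 with 1 library left out. Mettl21a (chr1:64606473-64617242), which methylates Hsp70 proteins, stood at 4.82, 5.61 and 4.59 scaled FPKM in the control and 2.0, 1.28 and 1.95 in the Al libraries. The highest Al value was below the lowest control, with a log2 fold change of -1.49 (SE 0.20, n = 3 per group, limma adjusted P = 2.7e-04). Mettl21b, an enzyme of the translation factor eEF1A, was called lower (log2 fold change -1.43), yet it had at most 22 reads in any library and the call was lost under 6 of 18 alternatives.

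Mettl9, a histidine methyltransferase and the most abundant of the protein class, stood at 19.2, 20.7 and 21.9 scaled FPKM in the control and 24.4, 24.7 and 22.1 in the Al libraries. The Al values were just above all controls, with a log2 fold change of 0.20 (SE 0.10, n = 3 per group, limma adjusted P = 0.1). The other protein enzymes were not called: Mettl13 (0.41), Mettl10 (0.25), Mettl18 (-0.17), Mettl23 (-0.29), Mettl21c (-0.30) and Mettl22 (-0.40). Mettl11b, an N-terminal methyltransferase, was listed at 0 in all 6 libraries and was not tested.

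In the class of other targets, Trmt112, the activating subunit shared by tRNA, rRNA and protein methyltransferases, was the most abundant, at 48, 46.5 and 50.2 scaled FPKM in the control and 53.5, 54.4 and 47.9 in the Al libraries. The groups overlapped, with a log2 fold change of 0.11 (SE 0.10, n = 3 per group, limma adjusted P = 0.36). Mettl7a1 (chr15:100304140-100328662), of a family of thiol methyltransferases, stood at 3.23, 3.59 and 2.87 scaled FPKM in the control and 0.754, 1.06 and 0.936 in the Al libraries. All Al libraries were below the controls, with a log2 fold change of -1.72 (SE 0.19, n = 3 per group, limma adjusted P = 1.1e-04), and since its transcript has near-identical copies in Mettl7a2 and Mettl7a3 its reads could be split between them. Mettl7a2 was listed at 0 in every library and Mettl7a3 had at most 3 reads in any. The small nuclear RNA methyltransferase Mettl4 (-0.93) and the DNA repair dioxygenase Alkbh2 (-0.68) were lower, and Alkbh3 (-0.56) was not called. Mettl7b had 16 reads in Al replicate 2 and at most 1 elsewhere, and was not called.

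Of the genes with no settled target, Pus7l (chr15:94522688-94543547), a paralog of the pseudouridine synthase Pus7, stood at 1.99, 2.32 and 1.94 scaled FPKM in the control and 0.598, 0.583 and 0.527 in the Al libraries. The Al libraries lay close together below all controls, with a log2 fold change of -1.70 (SE 0.19, n = 3 per group, limma adjusted P = 1.2e-04). Alkbh7, a mitochondrial protein and the most abundant of the class, stood at 15.7, 18.4 and 17 scaled FPKM in the control and 13.8, 16.6 and 12.1 in the Al libraries. The groups overlapped, with a log2 fold change of -0.27 (SE 0.13, n = 3 per group, limma adjusted P = 0.1). Alkbh6 (0.29), Nsun7 (0.28) and Mettl25 (-0.13) were not called. Mettl21e had 1 read in all 6 libraries together and Mettl24 at most 11 in any, and neither was tested.

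The members Alkbh2, Alkbh3, Alkbh8, Nsun5, Nsun6, Trmt6 and Trmt11 had an absolute log2 fold change within 0.1 of the threshold of 0.58, so that small changes of method move their call. Alkbh8 (0.62), Trmt11 (0.65), Nsun6 (-0.67) and Alkbh2 (-0.68) were called, whereas Trmt6 (0.56), Nsun5 (0.55) and Alkbh3 (-0.56) were not. Trmt11 was the least stable, with its call lost under 10 of 19 alternatives, 5 of them fits that left out a library. The alternatives include an unadjusted P and no fold threshold, which only relax the rule, so that a called member cannot lose its call under them. At the other end, 9 members called higher and 8 called lower kept their call under every alternative run: Alkbh1, Trmt10c, Alkbh4, Pus3, Trmt13, Mettl2, Mettl16, Mettl6 and Mettl17 higher, and Mettl20, Mettl7a1, Pus7l, Mettl8, Mettl21a, Mettl5, Trmt2b and Trmt1l lower.

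The ratio of 2 genes within a library is not changed by a scaling with 1 factor per library, though quantile normalization can change it, and was computed from the deposited FPKM for 12 pairs of partners, paralogs or enzymes of the same mark, chosen with the fold changes known. With 3 libraries against 3 the exact permutation test cannot give less than 0.1 (two-sided), and 9 of the 12 pairs had that value and no overlap, which the choice of pairs made likely, beside 68.1% of single genes without overlap. These ratios are a description. Mettl14 to Mettl3 stood at 0.969, 0.94 and 1.02 in the control and 0.96, 1.17 and 0.751 in the Al libraries. The ratio was near 1 in control and scattered around it in Al, with an exact permutation p of 0.8. Mettl16 to Mettl3 stood at 0.588, 0.49 and 0.638 in the control and 2.51, 2.45 and 1.17 in the Al libraries. Here all Al ratios exceeded the controls, the lowest being that of Al replicate 3, and the difference was 1.77 in log2 ratio (SE 0.38). Alkbh5 to Fto stood at 1.98, 1.85 and 2.26 in the control and 2.19, 2.6 and 3.57 in the Al libraries, and the groups overlapped (exact permutation p = 0.2).

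The m3C enzymes were compared across compartments. Mettl8 to Mettl2 stood at 0.289, 0.252 and 0.347 in the control and 0.0328, 0.0162 and 0.0525 in the Al libraries. Every Al ratio was below every control ratio, and the difference was -3.27 in log2 ratio (SE 0.51). Mettl6 to Mettl2, both acting on cytosolic tRNA, stood at 0.611, 0.778 and 0.809 in the control and 0.757, 0.609 and 0.729 in the Al libraries. These groups overlapped, and the difference was -0.07 in log2 ratio (SE 0.16). For the pseudouridine synthases, Pus7l to Pus7 stood at 0.31, 0.347 and 0.324 in the control and 0.0681, 0.0701 and 0.0636 in the Al libraries. The 3 Al ratios were nearly the same and all below the controls, and the difference was -2.28 in log2 ratio (SE 0.06).

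Trmt1l to Trmt1 stood at 0.425, 0.498 and 0.395 in the control and 0.131, 0.119 and 0.164 in the Al libraries. The groups were apart, and the difference was -1.68 in log2 ratio (SE 0.17). Trmt61a to Trmt6, the catalytic and the non-catalytic subunit of the tRNA 1-methyladenosine (m1A) writer, stood at 0.574, 0.443 and 0.629 in the control and 0.366, 0.359 and 0.282 in the Al libraries. The Al ratios were lower without overlap although neither gene alone was called, and the difference was -0.70 in log2 ratio (SE 0.19). Mettl5 to its cofactor Trmt112 stood at 0.0427, 0.0619 and 0.0521 in the control and 0.0171, 0.0164 and 0.0201 in the Al libraries. All Al ratios were below the controls, and the difference was -1.54 in log2 ratio (SE 0.18). The remaining differences in log2 ratio were 1.34 for Trmt10c to Trmt10a, 2.08 for Alkbh1 to Alkbh8 and -2.05 for Nsun4 to Nsun2, each without overlap.

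**Figure D4:**
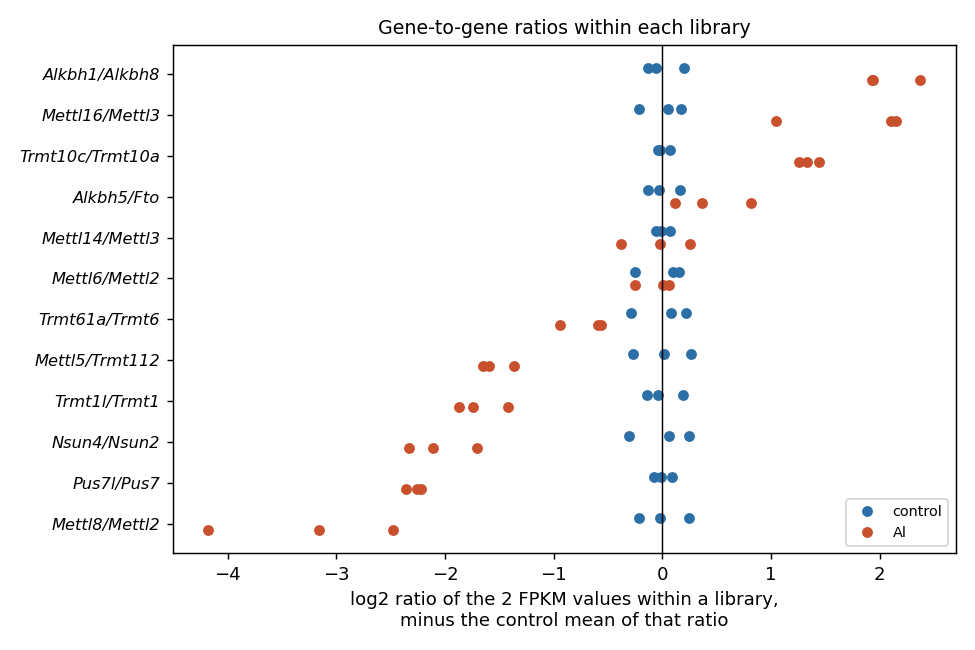
Log2 ratio of the FPKM of the 2 genes named on the left within each library, minus the control mean of that ratio, for control and Al libraries. The Al points of 9 of the 12 pairs lie apart from the control points, from Mettl8/Mettl2 at -3.27 on average to Alkbh1/Alkbh8 at 2.08.

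The fold changes were also set beside the level and other features of the genes. Across the 58 tested members the Spearman correlation of the log2 fold change with the log2 mean FPKM was 0.45, against 0.14 across all 12889 genes tested. That mean was taken over all 6 libraries, so that a rise in Al also raises it and part of the correlation is built in. Across the members and all genes the correlation was 0.02 and 0.03 with the GC content, -0.12 and -0.23 with the span of the gene, and 0.23 and -0.14 with the transcript length. These correlations run across genes that share the same 6 libraries and are a description. The summed scaled FPKM of the 15 members called higher was 90.1 to 100.1 in the control and 235.2 to 271.1 in the Al libraries, and that of the 15 called lower 53.2 to 58.4 and 24.5 to 27.4. These sums describe the calls and test nothing. Between libraries, the Pearson correlation of the members' log2 values was 0.988 to 0.992 within the control, 0.954 to 0.970 within Al and 0.808 to 0.869 between the groups. Al replicate 3 had the largest median deviation from the other libraries of its group, 0.32 on the log2 scale, and without it 15 members were higher and 15 lower.

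The scaling changed the balance of calls. With quantile normalization 17 members were higher and 11 lower, with the FPKM unscaled 11 and 24, and with equal FPKM sums 9 and 32. Under the last 2 the median log2 fold change of all genes was -0.43 and -0.72 in place of 0.03, and 1736 genes were called higher and 5321 lower, and 1141 and 6734, in place of 3291 and 3053. Called under all 4 scalings were 9 members higher and 11 lower. Of the other calls of higher, those of Nsun2 (log2 fold change 0.36) and Trmt44 (0.46) were lost with equal FPKM sums alone, and those of Trmt10a (0.50 unscaled, 0.20 with equal sums), Trmt1 (0.34, 0.05), Alkbh8 (0.14, -0.15) and Trmt11 (0.19, -0.08) with both. The calls of lower for Mettl15 (-0.81), Nsun4 (-0.57), Pus10 (-0.49) and Alkbh2 (-0.38) were lost with quantile normalization. By target the calls held under all 4 scalings were 1 of 4 mRNA genes higher, 6 of 27 tRNA genes higher and 4 lower, 1 of 5 rRNA genes higher and 1 lower, 1 of 11 tested protein genes higher and 3 lower, 2 of 6 tested genes with other targets lower, and 1 of 5 tested genes with no settled target lower.

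**Figure D5:**
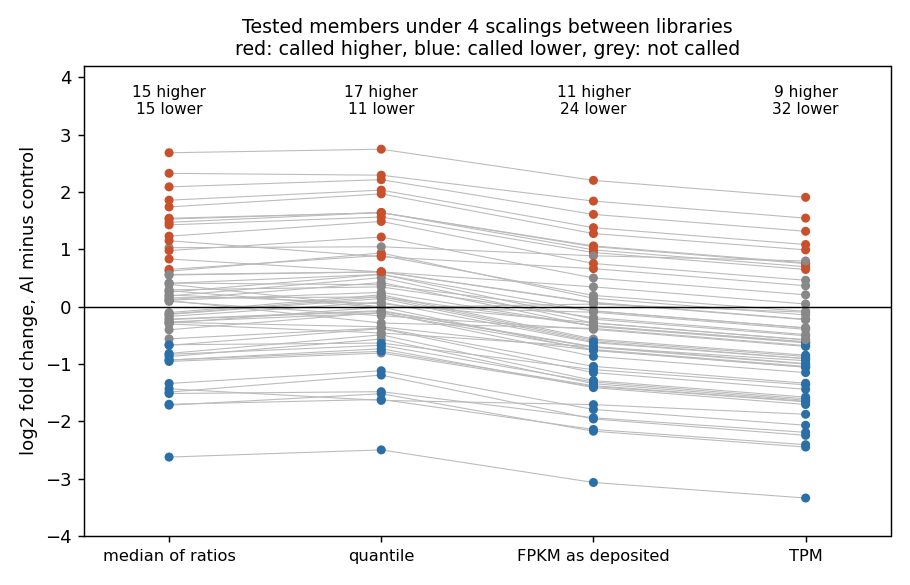
Log2 fold change (Al minus control) of the 58 tested members under 4 scalings between libraries, with a line for each member and the numbers called printed above. The whole set moves down with the FPKM unscaled and with TPM, where 24 and 32 members were lower.

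To set the members beside other genes of the same pathways, 2 lists were used. Of 24 m6A genes (writers, erasers and readers, 5 of them members here), all tested, 11 were higher and 4 lower, with a median log2 fold change of 0.38, while equal FPKM sums gave 4 and 10. Of the 19 that are not members 10 were higher and 3 lower, with a median of 0.64, beside 25.5% and 23.7% of all genes tested, but 6 and 6 with the FPKM unscaled and 3 and 7, with a median of -0.15, with equal FPKM sums. The largest rises were of the writer complex subunits Rbm15 (1.89), Cbll1 (1.78) and Rbm15b (1.59), and the largest falls of the rRNA writer Mettl5 and the readers Igf2bp2 (-1.07) and Ythdc2 (-1.0). Of 76 tested genes of other RNA modifications, none of them a member, 22 were higher and 9 lower, with a median of 0.10, while equal FPKM sums gave 11 and 40. The largest rises were of Cmtr2, a methyltransferase of the mRNA cap (2.17), Nhp2l1, a small nucleolar RNA-binding protein (1.75), and Trit1, which isopentenylates tRNA (1.74). The largest falls were of Thg1l, the tRNA-histidine guanylyltransferase (-1.90), Tfb1m, the dimethyladenosine methyltransferase of mitochondrial rRNA (-1.67), and Osgep, the catalytic subunit of the complex that writes threonylcarbamoyl-adenosine in tRNA (-1.50).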

How the data were processed

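RNA of 3 control and 3 aluminum maltolate-treated HT22 cultures was sequenced as the input of an m6A immunoprecipitation experiment, from a stranded mRNA kit. The deposited FPKM were made by the authors from reads aligned with HISAT2; the labels name fastp, HTSeq and GRCm39, the methods other trimming tools and GRCm38, and the design text a genome that is not of the mouse, so that the build stays unsettled, and coordinates here are those of GENCODE for GRCm38. Whether strand was used in counting is not given in the sources used here. Exons of 24 of the 63 members overlap those of an antisense gene, which is named in the text for some of them only. No immunoprecipitated library was used.

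The FPKM denominators were recovered from the steps between values, which gave whole reads for 17687 of 17688 genes above 0 in the table. The reads of a gene are known only up to a common divisor, so that printed read numbers may be too low. On simulated reads 94.5% of genes were recovered exactly and 100% up to such a divisor. Each library was divided by its median-of-ratios size factor, over genes with a mean of at least 1 FPKM. Genes with a mean of at least 0.1 FPKM (12889) were fitted with limma 3.58.1 in R 4.3.3 on log2(value + 0.1), which understates changes of low genes, with empirical Bayes and a mean-variance trend. The alternatives were other scalings, pseudocounts and filters, a replicate block, voom on the recovered reads, removal of GC dependence, other thresholds and leaving out each library. The scripts were tested on simulated data. Values are given for every mRNA-class member, the 6 largest rises and falls among called members without overlap at a mean of at least 1 FPKM, and the highest and lowest member of each target class. Members, target classes, lists and pairs were chosen with earlier results of these data known.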

Additional observations from a re-analysis of the deposited data

How the results depend on the processing

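Counts of called members moved most with the scaling between libraries: 24 were lower with the FPKM unscaled and 32 lower and 9 higher with equal FPKM sums (TPM), beside 15 and 15. The median log2 fold change of the members was then -0.36 and -0.66, and over the fits that left out 1 library it was 0.029 (without Al replicate 2) to 0.11. Leaving out 1 library gave 13 to 15 members higher and 12 to 15 lower. Of the genes of other RNA modifications 51 were called with TPM and 49 with no fold threshold, against 31. Alkbh8 and Trmt11, called higher, turned to -0.15 and -0.084 with TPM. Leaving out 1 library ended the call of Alkbh2 (-0.54 without Al replicate 1), Alkbh8 (0.57 without Al replicate 3, 0.56 without control replicate 2), Nsun6 (-0.63 without control replicate 1 or 2), Mettl21b (-1.03 without Al replicate 2, -1.2 and -1.35 without control replicate 1 and 3), Mettl15 (without any library but Al replicate 3, -0.58 to -1.03) and Trmt11 (without any but Al replicate 1, 0.43 to 0.76), and called Alkbh3, Nsun5, Trmt6 and Mettl13 past the fold threshold at 0.59 to 0.62 in absolute size. A pseudocount of 1 left 13 members higher and 10 lower. Whether a replicate number marks a shared day or culture is not said in the labels. The deviations of same-numbered libraries correlated at -0.03, -0.03 and -0.07, which cannot settle whether they were paired. With the number as a replicate block 14 members were higher and 14 lower. The cause of these shifts was not tested. The median member had 174 to 246 reads in the Al and 430 to 523 in the control libraries, and the part of depth in the wider spread of the Al libraries was not tested.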
